A study of Mus musculus with 9 samples.

Results

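The inflammasome genes examined here are 6 sensors (Nlrp3, Nlrc4, Nlrp1b, Aim2, Naip2 and Naip5), the adaptor Pycard, the caspases Casp1 and Casp4, and Gsdmd, which encodes the pore protein gasdermin D. They were picked by symbol, through their Ensembl identifiers, and make up 10 of the 53379 genes in the deposited RNA-seq table. All 10 were above the low-expression limit of the test, so none was lost to a filter. The study set IL-6 beside IL-4 in mouse bone marrow (BM)-derived Mϕs, asking how each cytokine shapes Mϕ gene expression in work on brain tumors. BM cells of 3 wild-type C57BL/6 mice were grown in 10 ng/ml MCSF (CSF-1, the growth factor that drives Mϕ differentiation) for 3 days, and for 4 further days in MCSF alone (Control), MCSF with 10 ng/ml IL-4, or MCSF with 100 ng/ml IL-6. Each condition has 3 libraries, numbered #1 to #3, and equal numbers are read here as the same mouse, which the study does not state. These amounts and times are read from the sample labels, where the IL-6 amount is misprinted. The methods of the study give the same except for a higher amount of IL-4, and its figure legends give another amount of both cytokines and a shorter treatment. The labels give no sex or age for the mice, no sort of the cultured cells, and no agent that triggers an inflammasome, so the values describe the expression of the components and not their activation.

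An inflammasome is a cytosolic complex in which a sensor detects a microbial product or cell damage and recruits, often through the adaptor ASC (Pycard), the protease caspase-1. Active caspase-1 matures IL-1β and IL-18 and cuts gasdermin D, whose released fragment opens pores in the plasma membrane and causes the lytic cell death called pyroptosis. Mouse caspase-11, the product of Casp4, is the sensor and protease of the non-canonical route, which is set off by cytosolic lipopolysaccharide and also cuts gasdermin D, and in Mϕs several of these genes are known to be transcribed at higher rates after a first, priming signal.

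The values are FPKM, fragments scaled to exon length and to library size, and the 10 genes had between 172 (Nlrc4) and 6562 (Pycard) fragments in a library. A difference "passed" at an adjusted p under 0.05 in limma, fitted to log2(FPKM + 0.1) with all 9 libraries and 12824 genes. Log2 differences below are on that scale. The samples differ in ways that their conditions do not explain. Control #1 to #3 and IL-4 #1 held 1113 to 1459 fragments of 14 intestinal genes and the other 5 libraries 3 to 8, which divides the libraries into 2 sets, and no set holds both control and IL-6 libraries. IL-6 against control and the set of libraries therefore cannot be told apart by direct comparison, and a fit with the set as a further factor rests on the step from IL-4 #1 to IL-4 #2 and #3. That fit, and the removal of a trend on exon length used below, were chosen after seeing the data. IL-4 #3 stood apart from IL-4 #1 and #2 in a way that followed gene length, described with its own plot. The Mϕ markers checked (Adgre1, Csf1r, Cd68, Itgam, Mertk and Fcgr1) were present in every condition, with summed levels of 2744.2 to 2760.4 FPKM in control, 1293.4 to 1527.1 under IL-4 and 2119.9 to 2210.0 under IL-6. The 10 granulocyte markers checked were also present and summed to 4923.4 to 8791.6, 2197.0 to 4137.3 and 7966.6 to 11126.5 FPKM, respectively. In bulk RNA, fewer cells of a type and less RNA per cell cannot be told apart, and the part of granulocytes in the values below was not tested.

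Several of the genes have neighbors or relatives that matter for reading their values (coordinates of GENCODE M21 on GRCm38). Casp1 (chr9:5298517-5307265, plus strand) and Casp4 (chr9:5308828-5336783) are tandem neighbors, 1562 bases apart, and Casp12 follows on the same strand 8646 bases further. Naip2 (chr13:100144063-100202092) and Naip5 (chr13:100211739-100246323) also sit side by side on the minus strand, 9646 bases apart. Of the 50-base stretches in the transcripts of Naip5, 36.9% also occur in other genes, most often in Naip6 (22.3%), and for Naip2 the share was 19.1%, so reads of the Naip family could be split or lost in the counting and both levels are uncertain. Nlrp3 (chr11:59541568-59566956, plus strand), Nlrp1b (chr11:71153102-71230733, minus strand, next to Nlrp1a) and Aim2 (chr1:173350879-173466040, plus strand) shared at most 1.45% of such stretches. Pycard (chr7:127989708-127993867, minus strand) shares 485 exon bases with the antisense model Gm45205, which was listed at a mean of 0.0651 FPKM. Its value is divided by 3800 exon bases although its shorter coding transcript has 493, so its level relative to other genes depends on which transcript is made. The same holds for Casp4, divided by 3710 exon bases although its coding transcripts have 361 to 1435. Nlrc4 (chr17:74425438-74459142, minus strand) and Gsdmd (chr15:75862327-75867408, plus strand) shared 1.09% and 0%.

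Casp1 and Casp4 passed the test with different cytokines, and Nlrp3 differed most among the sensors, so the 250 bases before their annotated starts are shown (RefSeq, GRCm38.p6, plus strand, 5′ to 3′). Both strands were searched for TTC and GAA spaced by 3 or by 4 bases, the palindromes that STAT proteins bind, for a pair of GAAA spaced by 2 bases, an interferon-response element, and for GGGA and CC spaced by 4 bases, an NF-κB-like element. Matches are in capitals.
Casp1, chr9:5298267-5298516: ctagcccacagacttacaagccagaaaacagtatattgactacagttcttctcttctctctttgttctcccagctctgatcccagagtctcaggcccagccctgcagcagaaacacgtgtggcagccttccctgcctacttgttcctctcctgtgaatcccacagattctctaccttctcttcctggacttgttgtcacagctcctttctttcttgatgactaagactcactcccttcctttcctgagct
Casp4, chr9:5308599-5308848: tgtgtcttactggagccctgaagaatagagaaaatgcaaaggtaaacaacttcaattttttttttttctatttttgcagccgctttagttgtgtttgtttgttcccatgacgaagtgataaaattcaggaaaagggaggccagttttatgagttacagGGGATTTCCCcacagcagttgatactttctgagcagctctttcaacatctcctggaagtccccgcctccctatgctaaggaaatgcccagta
Nlrp3, chr11:59542436-59542685: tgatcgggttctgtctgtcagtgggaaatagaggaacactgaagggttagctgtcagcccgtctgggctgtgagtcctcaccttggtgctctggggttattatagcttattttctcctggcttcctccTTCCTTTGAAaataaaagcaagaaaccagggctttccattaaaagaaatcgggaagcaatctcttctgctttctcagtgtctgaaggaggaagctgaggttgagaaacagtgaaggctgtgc
Nlrp3, chr11:59541319-59541568: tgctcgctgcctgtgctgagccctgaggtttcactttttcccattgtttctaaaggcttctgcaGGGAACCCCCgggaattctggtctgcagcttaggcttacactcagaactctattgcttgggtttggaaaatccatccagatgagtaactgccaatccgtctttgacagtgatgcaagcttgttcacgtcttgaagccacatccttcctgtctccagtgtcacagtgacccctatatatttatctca

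The window of Casp4 held GGGATTTCCC 92 to 83 bases before the start. The 2 windows of Nlrp3 held TTCCTTTGAA 122 to 113 bases and GGGAACCCCC 186 to 177 bases before their starts, and no match stood in that of Casp1. In 32851 promoter windows of this length, 17.6% held the NF-κB-like letters and 5.85% TTC and GAA spaced by 4 bases, beside 7.02% for the spacing of 3 and 2.98% for the pair of GAAA. A match is a description of the letters and not evidence of binding, and both the motifs and the windows were chosen after the values were known.

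In control Mϕs Gsdmd and Casp1 had the highest FPKM of the 10 genes and Casp4 the lowest. On the FPKM scale, which is per exon length, Gsdmd had 63.1 ± 4.92 (mean ± SD, n = 3 for all such values) and Casp1 52.9 ± 5.54, and the libraries of these neighbors in the order did not overlap. Nlrp3, Naip2 and Pycard followed with means between 17 and 18.6 FPKM and overlapping libraries. Naip5, Aim2 and Nlrp1b, at means of 11.6, 11.4 and 9.72 FPKM, also overlapped in order. Nlrc4 (6.49 ± 0.465) and Casp4 (4.98 ± 0.228) came last, each below the libraries of the gene before it. With IL-4 the order changed at the top, where Casp1 (92.8 ± 9.73 FPKM) stood above Gsdmd (65.1 ± 8.28) without overlap, and at the bottom, where Nlrp3, Nlrp1b and Nlrc4 held the last places with overlapping libraries. With IL-6, Gsdmd (89.9 ± 1.63 FPKM) led Casp1 (45.4 ± 1.87), and Casp4 moved from the last place to the sixth. Both places of Casp4 rest on its exon length of 3710 bases, which exceeds that of its coding transcripts.

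**Figure D1:**
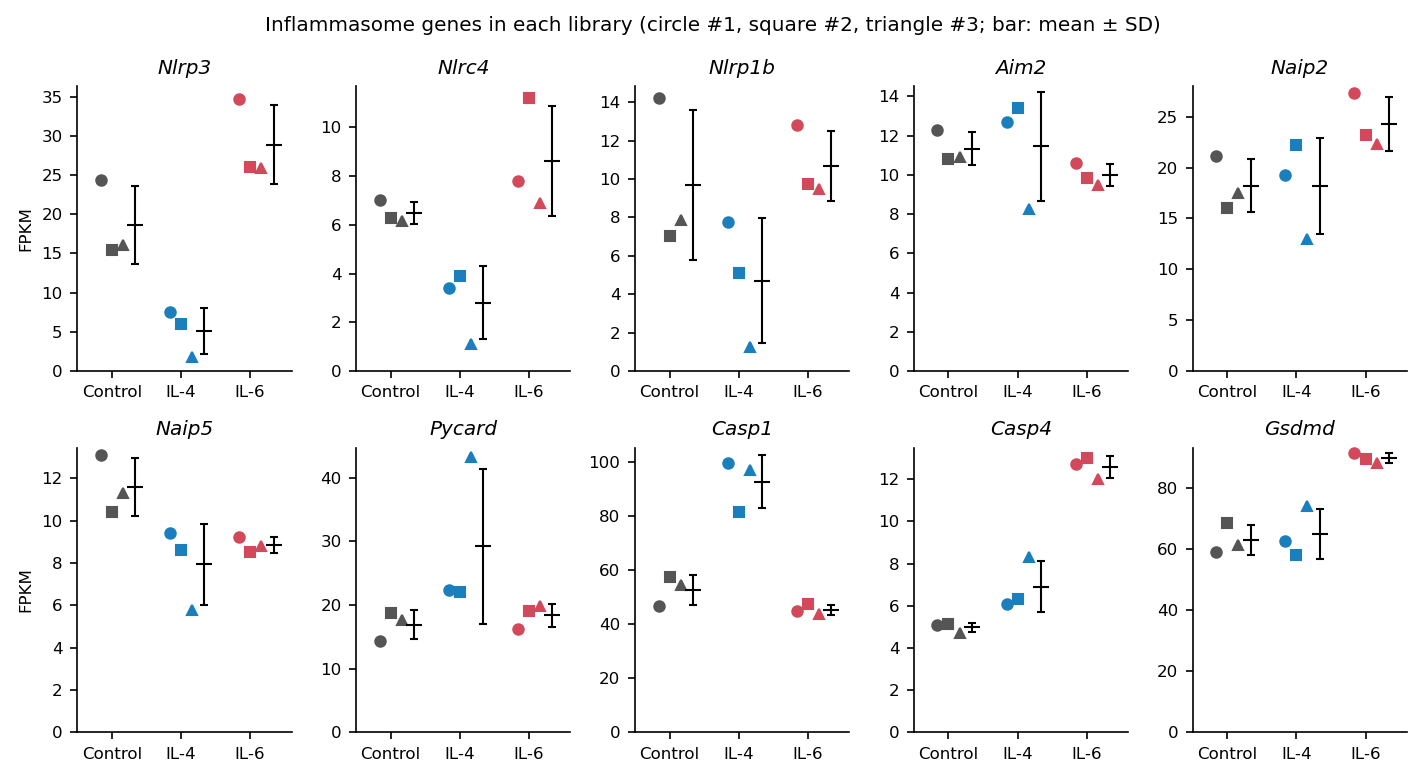
Level of each inflammasome gene in FPKM (vertical axis, from 0) in the 3 libraries of each condition, with circles, squares and triangles for #1, #2 and #3 and the mean ± SD beside them. The IL-4 libraries of Nlrp3 sit between 1.79 and 7.47 FPKM, below all others, those of Casp1 between 81.6 and 99.6, above all others, and the IL-6 libraries of Casp4 (12 to 13) and Gsdmd (88.4 to 91.6) stand above all others.

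With IL-4, caspase-1 transcripts were higher and those of a pair of sensors lower. Casp1 was 1.76 times its control level with IL-4, whereas Nlrp3 was at 0.272 and Nlrc4 at 0.434 of control. These 3 of the 10 genes passed in IL-4 against control, 1 higher and 2 lower, beside 24.8% of all genes tested (8.55% higher and 16.3% lower). All IL-4 libraries lay above the control libraries in 3 genes (Pycard, Casp1 and Casp4) and below them in 3 (Nlrp3, Nlrc4 and Naip5), beside 40.3% of all genes with such separation (13.5% higher and 26.8% lower). The median log2 difference was −0.02 over the 10 genes and −0.20 over all genes tested. Of all genes that passed, 1096 were higher and 2090 lower with IL-4, but 1574 and 1618 after each library was rescaled by its median ratio, which moved the differences of the genes up by a median of 0.194. With a log2 difference of at least 1 required as well, 2 of the 10 genes passed (Nlrp3 and Nlrc4), beside 13.9%.

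With IL-6, the genes of caspase-11 and gasdermin D were higher. Casp4 was 2.53 times and Gsdmd 1.43 times its control level, and these 2 were the genes that passed in IL-6 against control, both higher, beside 8.4% of all genes tested (4.58% higher and 3.82% lower). The other 8 did not pass. Of the genes that passed, 1 (Casp4) also differed by at least 1 on the log2 scale, beside 5.38% of all genes tested. IL-6 libraries lay wholly above control in 4 genes (Nlrp3, Naip2, Casp4 and Gsdmd) and wholly below in 2 (Aim2 and Naip5), beside 43.2% of all genes (20% higher and 23.2% lower). The median log2 difference was 0.29 over the 10 genes and −0.004 over all genes tested. When the set of libraries was fitted as well, 0 of the 10 passed in limma (2 at an unadjusted p under 0.05, and 2 passed in voom on the recovered fragments without that factor), beside 187 of all genes, and with the mouse as a block 1 of the 10 did (Casp4).

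Set directly against each other, the cytokines differed in 5 of these genes. Nlrp3, Nlrc4, Casp4 and Gsdmd were higher with IL-6 and Casp1 was higher with IL-4. These genes passed, 4 of them higher and 1 lower with IL-6, beside 34.1% of all genes tested (20.8% higher and 13.3% lower). The libraries did not overlap in 8 genes, 6 higher (adding Nlrp1b and Naip2) and 2 lower (Pycard and Casp1) with IL-6, beside 56.9% of all genes (36.3% higher and 20.6% lower). The median log2 difference was 0.45 over the 10 genes and 0.22 over all genes. Of all genes that passed, 2671 were higher and 1704 lower, or 2280 and 2205 after the median-ratio rescaling. With a log2 difference of at least 1 required as well, 3 of the 10 passed (Nlrp3, Nlrc4 and Casp1), beside 20.4%. The comparisons share libraries, so their results are given side by side and not as independent of each other.

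**Figure D2:**
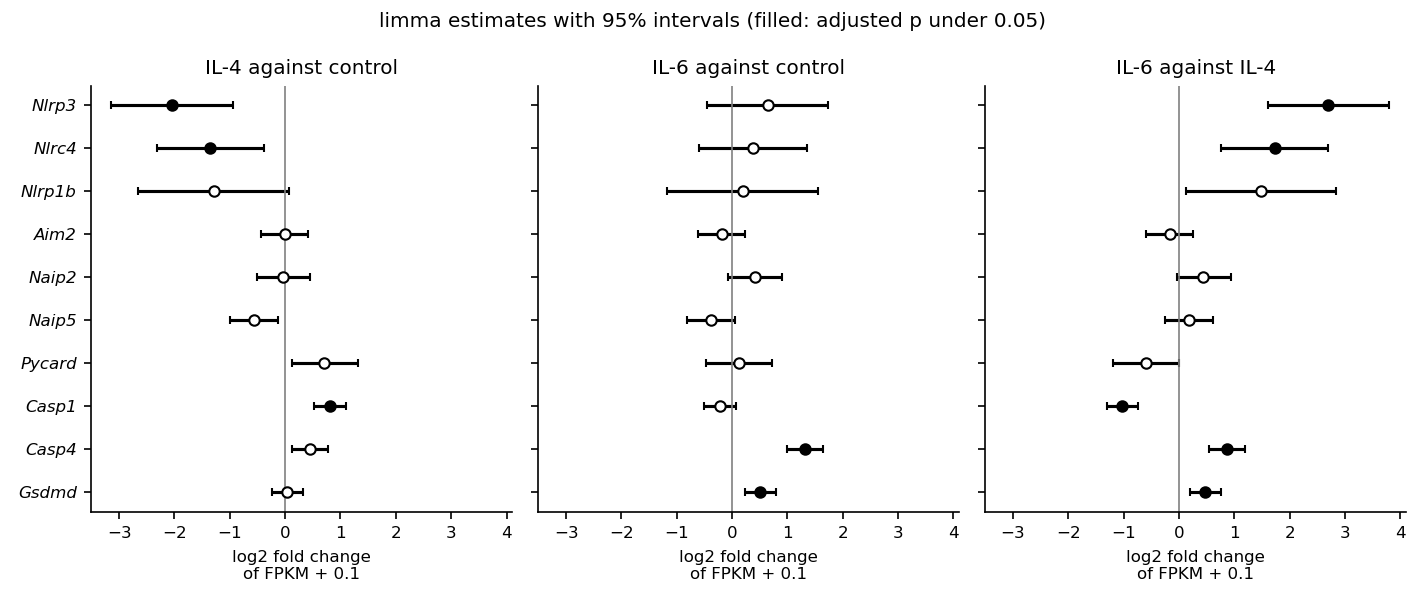
Difference of each inflammasome gene in the 3 comparisons, on the horizontal axis as log2 of FPKM + 0.1, with limma estimates (circles), 95% intervals (bars) and filled circles where the adjusted p was under 0.05. Casp1 is the filled circle to the right of 0 with IL-4 (0.81), Casp4 (1.32) and Gsdmd (0.51) are those with IL-6, and the intervals of Nlrp3, Nlrc4 and Nlrp1b are the widest.

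Nlrp3 is the sensor of a broad range of insults, such as potassium efflux and crystals, and its amount is known to depend on priming. Its FPKM were 24.4, 15.4 and 16.1 in control, 7.47, 5.96 and 1.79 under IL-4, and 34.7, 26 and 25.9 under IL-6 (libraries #1, #2 and #3). Every IL-4 library was below every control library, and every IL-6 library was above them. The fall with IL-4 was 2.05 on the log2 scale (standard error 0.477, limma adjusted p = 0.0158). It did not pass without Control #1 (adjusted p = 0.0624) or with only the groups compared (adjusted p = 0.0574). IL-4 #3 alone was the lowest, and without it the log2 difference was −1.44 (adjusted p = 0.00192). The IL-6 level, 1.55 times control, did not pass (log2 difference 0.65, 95% interval −0.45 to 1.74, adjusted p = 0.518), while IL-6 over IL-4 did (2.69, adjusted p = 0.00348), also without each library in turn. Within the sets of libraries, IL-4 #1 was at 0.401 of the control mean and the IL-6 mean was 7.44 times that of IL-4 #2 and #3. Adjusted for the set, the IL-4 difference was −1.27 (adjusted p = 0.244).

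Nlrc4 and the Naip proteins form one sensor, in which a Naip protein binds the bacterial ligand, flagellin for Naip5 and the inner rod of secretion systems for Naip2, and Nlrc4 polymerizes. Nlrc4 had 7.02, 6.29 and 6.15 FPKM in control, 3.41, 3.9 and 1.12 under IL-4, and 7.79, 11.2 and 6.89 under IL-6. IL-4 libraries were all below control, and IL-6 libraries overlapped control. The fall with IL-4 of 1.35 on the log2 scale was close to the threshold (standard error 0.421, limma adjusted p = 0.0493). It was not past it without any 1 of the control or IL-6 libraries (adjusted p from 0.0672 to 0.136), and without IL-4 #3 the difference was −0.81 (adjusted p = 0.0135). Nor was it past it on adjustment for the set (−0.90, adjusted p = 0.436), with only the groups compared (adjusted p = 0.112) or without a filter (adjusted p = 0.0957). IL-6 over IL-4 passed with a log2 difference of 1.73 (adjusted p = 0.0149), though not without IL-6 #2 (adjusted p = 0.0588). IL-6 over control was 0.38 (adjusted p = 0.672).

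The ligand-binding partners of Nlrc4 did not pass in any comparison. Naip2 had 21.1, 16 and 17.5 FPKM in control, 19.3, 22.2 and 13 under IL-4, and 27.3, 23.2 and 22.3 under IL-6. Its IL-4 and control libraries overlapped, with equal means of 18.2 FPKM (log2 difference −0.03, 95% interval −0.51 to 0.45), and its IL-6 libraries were above both without passing (0.41 over control, limma adjusted p = 0.317). Naip5 had 13.1, 10.4 and 11.3 FPKM in control, 9.44, 8.6 and 5.8 under IL-4, and 9.24, 8.51 and 8.79 under IL-6. It was lower than control in all 3 libraries of either cytokine, by a log2 difference of −0.56 with IL-4 (adjusted p = 0.0633) and −0.38 with IL-6 (adjusted p = 0.302), and neither passed. Without IL-4 #3 both did (adjusted p = 0.04 and 0.0294), as they did after quantile normalization (adjusted p = 0.0329 and 0.0452), and without IL-4 #1 the difference with IL-4 did (adjusted p = 0.0336), whereas adjustment for the set gave an IL-6 difference of 0.03. Naip2 passed in IL-6 against control when IL-4 #3 was left out (adjusted p = 0.0497).

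Nlrp1b, a sensor held back by dipeptidyl peptidases, and Aim2, which binds double-stranded DNA, did not pass in any comparison. Nlrp1b had 14.2, 7.05 and 7.87 FPKM in control, 7.77, 5.08 and 1.27 under IL-4, and 12.8, 9.76 and 9.47 under IL-6. The spread within control and IL-4 was wide, and #1 was the highest library in each condition. IL-6 libraries were above IL-4 in every case, with a log2 difference of 1.48 (limma adjusted p = 0.0846) that passed with the mouse as a block (adjusted p = 0.0447), without IL-4 #1 (2.00, adjusted p = 0.0266) and on adjustment for the set (2.00, adjusted p = 0.0267). Its difference with IL-4 was −1.29 (adjusted p = 0.153), and without IL-4 #1 it was −1.81 (adjusted p = 0.048). Aim2 had 12.3, 10.8 and 10.9 FPKM in control, 12.7, 13.4 and 8.28 under IL-4, and 10.6, 9.83 and 9.5 under IL-6. Its differences from control were −0.01 with IL-4 (95% interval −0.44 to 0.41) and −0.19 with IL-6 (−0.61 to 0.24). IL-6 against IL-4 passed for Aim2 without IL-4 #3 (−0.39, adjusted p = 0.0119) and after median-ratio rescaling (−0.37, adjusted p = 0.0437), where it was −0.17 in the main test.

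Pycard, the adaptor that bridges sensor and caspase-1, had 14.4, 18.8 and 17.6 FPKM in control, 22.3, 22 and 43.3 under IL-4, and 16.3, 19 and 19.8 under IL-6. IL-4 libraries were above all others, IL-4 #3 by far, and control and IL-6 libraries overlapped. The difference with IL-4 was 0.71 on the log2 scale (95% interval 0.12 to 1.31, limma adjusted p = 0.0808) and did not pass. Without IL-4 #3 it was 0.39 and passed (adjusted p = 0.0488). With IL-6 it was 0.12 (95% interval −0.48 to 0.72), and −0.35 on adjustment for the set (adjusted p = 0.599).

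Casp1 encodes the protease on which the canonical inflammasomes converge. Its FPKM were 46.7, 57.5 and 54.4 in control, 99.6, 81.6 and 97.1 under IL-4, and 45, 47.4 and 43.7 under IL-6. IL-4 libraries were above all others, and IL-6 libraries overlapped the lowest control library. The rise with IL-4 was 0.81 on the log2 scale (standard error 0.126, limma adjusted p = 0.00231), and IL-6 was lower than IL-4 by a log2 difference of −1.03 (adjusted p = 0.000485). Both passed without each library in turn and under the 11 other settings, with the IL-4 difference between 0.68 and 1.01. IL-6 against control was −0.22 (95% interval −0.50 to 0.07, adjusted p = 0.394). Within the sets, IL-4 #1 was 1.89 times the control mean and the IL-6 mean was 0.508 of that of IL-4 #2 and #3.

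Casp4, its neighbor, was highest with IL-6. Its FPKM were 5.07, 5.14 and 4.72 in control, 6.1, 6.3 and 8.29 under IL-4, and 12.7, 13 and 12 under IL-6. The conditions did not overlap, with control lowest and IL-6 highest. The rise with IL-6 was 1.32 on the log2 scale (standard error 0.142, limma adjusted p = 0.00106) and passed without each library in turn. Adjusted for the set it was 1.08 and missed the threshold (adjusted p = 0.0927). IL-6 also exceeded IL-4 by 0.87 (adjusted p = 0.00213), and within 1 set of libraries the IL-6 mean was 1.73 times that of IL-4 #2 and #3. The difference with IL-4 was 0.45 (standard error 0.142, adjusted p = 0.0503), at the threshold, and it passed without IL-4 #1 (0.53, adjusted p = 0.0389) or IL-4 #3 (0.31, adjusted p = 0.0219).

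Gsdmd, the substrate of both caspases, had 59.2, 68.6 and 61.4 FPKM in control, 62.8, 58.2 and 74.2 under IL-4, and 91.6, 89.6 and 88.4 under IL-6. IL-6 libraries were above all others, while IL-4 and control libraries overlapped. The rise with IL-6 was 0.51 on the log2 scale (standard error 0.122, limma adjusted p = 0.0379). It did not pass with the mouse as a block (adjusted p = 0.0759), on adjustment for the set (0.45, adjusted p = 0.29), after median-ratio rescaling (adjusted p = 0.169), without a filter (adjusted p = 0.0672), or without any 1 of the control or IL-6 libraries (adjusted p from 0.0777 to 0.155). IL-6 over IL-4 was 0.47 (adjusted p = 0.0184), which did not pass without IL-4 #2 or any 1 of the IL-6 libraries (adjusted p from 0.0572 to 0.0656) or after the median-ratio rescaling (0.27, adjusted p = 0.288). The difference with IL-4 was 0.04 (95% interval −0.24 to 0.32).

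The spread of Nlrp3, Nlrc4, Nlrp1b and Pycard within IL-4 was widest at IL-4 #3, whose values followed exon length across all genes. Against the mean of IL-4 #1 and #2, its log2 value had a median difference of 0.39 over 3220 genes under 2 kb of exon, −0.87 over 4572 genes of 5 kb or more, and −0.35 over all genes tested. Nlrp1b (6305 exon bases), Nlrp3 (4057) and Nlrc4 (3838) differed by −2.22, −1.84 and −1.62, further than the medians for genes near their lengths. Pycard differed by 0.96 and Casp4 by 0.41, while their 3800 and 3710 exon bases are close to those of Nlrc4. Their coding transcripts can be much shorter, down to 493 bases for Pycard and 361 to 1435 for Casp4. Genes near 480 and 1406 exon bases had medians of 0.456 and 0.509. Which length applies to these 2 genes was not tested, and the trend removal below used their exon lengths. Casp1 (0.11) and Gsdmd (0.30), at 1497 and 1776 exon bases, were below the medians of 0.509 and 0.351 for genes near these lengths. After each library's trend on exon length was removed, 5 of the 10 genes passed in IL-4 against control, beside 33% of all genes. The part of RNA quality in the values of IL-4 #3 was not tested.

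**Figure D3:**
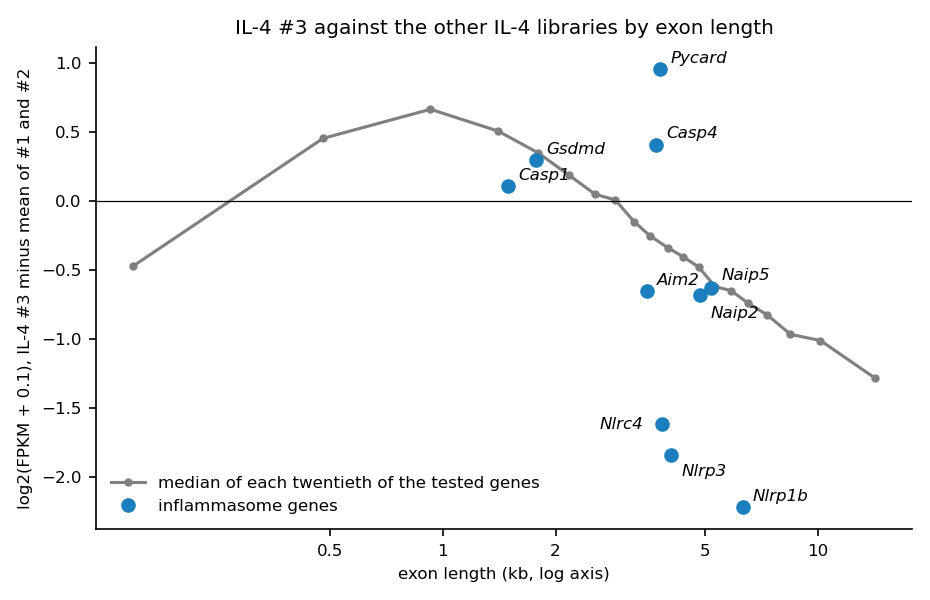
Difference between IL-4 #3 and the mean of IL-4 #1 and #2 in log2(FPKM + 0.1) (vertical axis) against exon length in kilobases (horizontal log axis), with medians over equal groups of tested genes as the grey line and the inflammasome genes as blue points. Above its highest point (0.667, at 928.5 bases) the line falls to −1.283 in the longest genes, Nlrp3, Nlrc4 and Nlrp1b lie below it and Pycard and Casp4 above.

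The balance between components was read within each library as ratios of FPKM, which do not depend on the library's total. The size of a ratio does depend on the exon lengths used, which are the same in every library. A trend on exon length within a library, as in IL-4 #3, does not cancel between genes of unlike length. The part of that trend in the ratios was not tested. The pairs were picked after the levels had been seen, so the ratios are a description. Casp4 was at 0.109, 0.0895 and 0.0867 of Casp1 in control, at 0.0613, 0.0771 and 0.0854 under IL-4, and at 0.283, 0.274 and 0.275 under IL-6. The 3 conditions were separate, and the IL-6 ratios varied little among mice. Gsdmd over Casp1 had means of 1.2 in control, 0.702 under IL-4 and 1.98 under IL-6, again without overlap. Nlrp3 over Casp1 ran from 0.268 to 0.522 in control, from 0.0185 to 0.075 under IL-4 and from 0.548 to 0.771 under IL-6. The lowest IL-4 value was that of IL-4 #3, beside 0.075 and 0.073 in IL-4 #1 and #2. Nlrp3 over Pycard ran from 0.817 to 1.69 in control, 0.0414 to 0.334 under IL-4 and 1.3 to 2.13 under IL-6, and control and IL-6 overlapped. Here too IL-4 #3 was the lowest, beside 0.334 and 0.271 in IL-4 #1 and #2. Naip5 over Naip2 was lower with either cytokine, with means of 0.638 in control, 0.441 under IL-4 and 0.366 under IL-6. The part of the sequence that both genes share with relatives in this ratio was not tested.

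**Figure D4:**
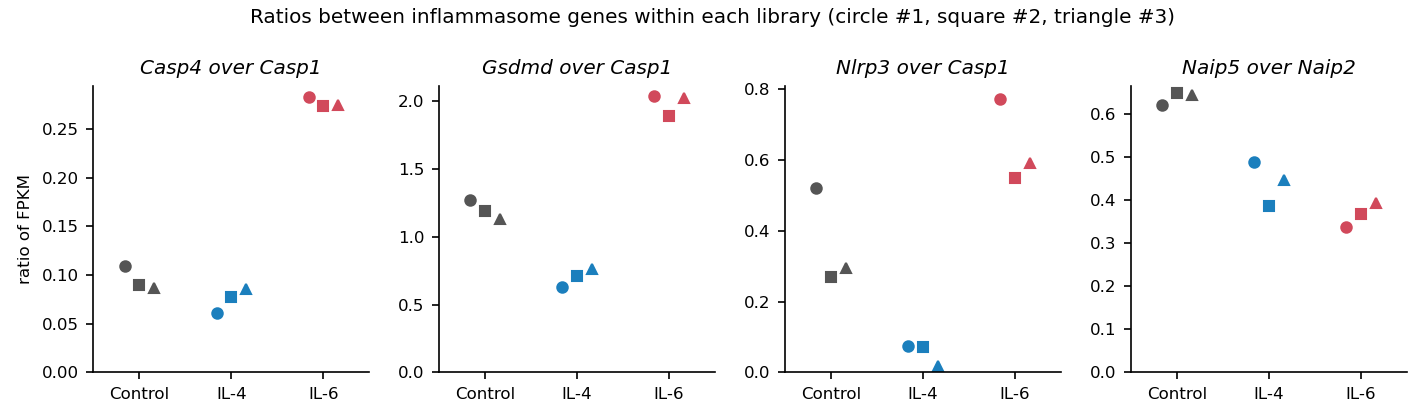
Ratios of FPKM between pairs of inflammasome genes within each library (vertical axes from 0), by condition, with circles, squares and triangles for #1, #2 and #3. Casp4 over Casp1 sits between 0.274 and 0.283 in the IL-6 libraries and at 0.109 or below elsewhere, and Gsdmd over Casp1 falls with IL-4 (0.63 to 0.765) and rises with IL-6 (1.89 to 2.04) around control (1.13 to 1.27).

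Around the core, 61 further genes of the pathway were listed by role, and 57 of them were tested. With IL-4, 6 of the 57 were higher and 15 lower, but 12 and 11 after median-ratio rescaling and 11 and 8 on adjustment for the set. The median log2 difference was −0.31 (−0.20 over all genes). With IL-6, 8 were higher and 1 lower, with a median of 0.30 (−0.004 over all genes). In IL-6 against IL-4, 20 were higher and 6 lower, with a median of 0.53 (0.22 over all genes). Of all genes tested, 24.8% passed with IL-4 (24.9% after the rescaling and 10.7% adjusted for the set). With IL-6 8.4% of them passed, and in IL-6 against IL-4 34.1%.

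Il1b, Mefv and Il18 passed with log2 differences over 1 in size in at least 1 comparison with control. Il1b, which encodes pro-IL-1β, ranged from 2.14 to 3.76 FPKM in control, 0.767 to 1.19 under IL-4 and 65.6 to 79.6 under IL-6, a fall of 1.54 on the log2 scale (limma adjusted p = 0.00303) and a rise of 4.47 (adjusted p = 4.98e-05). Mefv, which encodes the inflammasome sensor pyrin, followed the same order at 7.7 to 9.66, 0.771 to 2.47 and 68.1 to 78.1 FPKM, a fall of 2.37 (adjusted p = 0.00195) and a rise of 3.10 (adjusted p = 0.00158). Its libraries did not overlap between conditions, and in IL-6 the level was higher than that of any of the 6 sensors above. Il18, for pro-IL-18, fell by 2.56 with IL-4 (18.2 to 2.97 FPKM, adjusted p = 2.51e-05) and was 0.47 higher with IL-6 (adjusted p = 0.142). In IL-6 against IL-4, the log2 differences were 6.01 for Il1b, 5.46 for Mefv and 3.03 for Il18, all past the threshold. Of the other sensors Nlrp12 fell by 1.22 with IL-4 (adjusted p = 0.0127), though not without Control #3 (adjusted p = 0.0527) or on adjustment for the set (−1.08, adjusted p = 0.14).

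Casp12 and Ripk3 also passed with log2 differences over 1. Casp12, the third gene of the caspase cluster, stood at 0.134 to 0.366 FPKM in control, 0.17 to 0.587 under IL-4 and 2.19 to 2.5 with IL-6, a rise under IL-6 of 3.02 (limma adjusted p = 0.00358). It rose with its neighbor Casp4 under IL-6, from a low level. Ripk3, the kinase of necroptosis, rose with both, by 1.95 with IL-4 (5.93 to 23 FPKM, adjusted p = 4.23e-05) and 1.48 with IL-6 (16.6 FPKM, adjusted p = 0.000583). All the calls on Il1b, Mefv, Il18, Casp12 and Ripk3 against control held without each library in turn and on adjustment for the set, where the IL-6 differences were 3.95 for Il1b, 4.07 for Mefv, 4.22 for Casp12 and 1.56 for Ripk3.

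Of 12 licensing and assembly partners, 3 (25%) passed with IL-4 and 2 (16.7%) with IL-6, beside 24.8% and 8.4% of all genes tested. Panx1, a channel for ATP release, fell by 1.21 with IL-4 (limma adjusted p = 0.000525). Txnip, which binds NLRP3, rose by 0.89 with IL-4 (limma adjusted p = 0.0024) and fell by 0.75 with IL-6 (adjusted p = 0.0135). The fall with IL-6 did not pass without any 1 of the IL-6 libraries (adjusted p from 0.0578 to 0.0676). Nor did it pass after quantile normalization (adjusted p = 0.0513) or on adjustment for the set (−0.92, adjusted p = 0.135). Sting1, the adaptor of cytosolic DNA sensing, rose by 0.80 with IL-4 (adjusted p = 0.00571) and by 0.97 with IL-6 (adjusted p = 0.00582), the former not after removal of the length trend (0.64, adjusted p = 0.0784). P2rx7, the ATP receptor, passed in IL-6 against IL-4 (1.00, adjusted p = 0.0329), though not without Control #3 or any 1 of the IL-6 libraries (adjusted p from 0.0537 to 0.0937).

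Among 9 interferon-inducible GTPases and IRFs, 3 passed with IL-4 and 0 with IL-6 in limma (0 at an unadjusted p under 0.05 and 0 in voom). The share with IL-4 was 33.3%, beside 24.8% of all genes tested, and 8.4% of all genes tested passed with IL-6. Gbp2, which helps expose bacterial lipopolysaccharide to caspase-11, ranged from 14 to 23.4 FPKM in control, 44.2 to 261.6 under IL-4 and 14.7 to 23.2 under IL-6, a rise with IL-4 of 2.57 (limma adjusted p = 0.0125). Irf1, an activator of such genes, rose by 1.26 with IL-4 (adjusted p = 0.0132), and both missed the threshold without Control #3 (adjusted p = 0.0503 for Gbp2 and 0.0544 for Irf1). Irf1 in IL-6 against IL-4 (−0.88, adjusted p = 0.0422) did not pass with the mouse as a block (adjusted p = 0.0546), without 8 of the 9 libraries in turn (adjusted p from 0.0584 to 0.14) or on adjustment for the set (−0.56, adjusted p = 0.0602). Irf8 fell by 1.25 with IL-4 (adjusted p = 0.000837).

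Of 7 priming genes 3 (42.9%) passed with IL-4, all lower, and of 8 inhibitors 5 (62.5%) passed, all lower. Of all genes tested, 24.8% passed with IL-4, 16.3% as lower. Tlr4, the lipopolysaccharide receptor, had a log2 difference of 0.56 (limma adjusted p = 0.374). Cd14, the lipopolysaccharide co-receptor, fell by 2.53 with IL-4 (124.8 to 22.8 FPKM, limma adjusted p = 0.000366). With IL-6 it rose by 1.27, to between 287.7 and 316.3 FPKM (adjusted p = 0.0262), which did not pass without any 1 of the control or IL-6 libraries (adjusted p from 0.0669 to 0.114) or on adjustment for the set (0.50, adjusted p = 0.392). Myd88, the adaptor of Toll-like receptors, was 0.81 higher with IL-6 (adjusted p = 0.00252, or 0.144 on adjustment for the set). With IL-4, Myd88 (−0.38) and Rela (−0.49, an NF-κB subunit) passed in the main test only by a small margin (adjusted p = 0.0298 and 0.03) and not after the median-ratio rescaling (adjusted p = 0.413 and 0.353). Their calls were lost without 7 and 8 of the 9 libraries in turn, respectively, and on adjustment for the set (adjusted p = 0.0573 and 0.0656). Nlrc3, a negative regulator of the family, fell by 1.81 with IL-4 (1.83 to 0.462 FPKM, adjusted p = 0.000906). Serpinb1a, an inhibitor of neutrophil proteases and caspases, fell by 0.89 with IL-4 (adjusted p = 0.0125), not without Control #3 (adjusted p = 0.0529) or after the median-ratio rescaling (adjusted p = 0.0638). Trim30a fell by 1.12 with IL-4 (adjusted p = 0.0393), a call lost without 7 of the 9 libraries in turn (adjusted p up to 0.117) and on adjustment for the set (−0.44, adjusted p = 0.531). Il1r2, the IL-1 decoy receptor, was the inhibitor that passed with IL-6 (1.03, adjusted p = 0.0333), a call likewise lost without 7 of the libraries (adjusted p up to 0.128) and on adjustment for the set (0.48, adjusted p = 0.397).

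**Figure D5:**
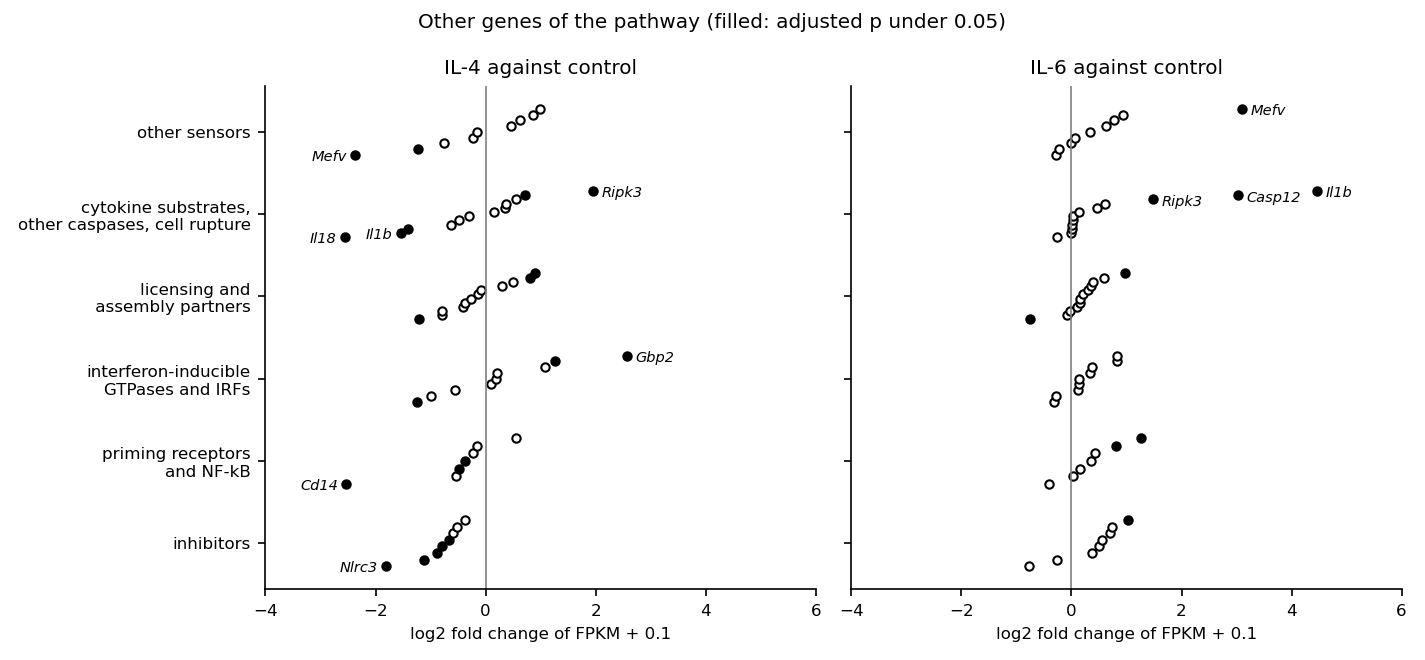
Differences of the 57 tested pathway genes outside the core, on the horizontal axis as log2 of FPKM + 0.1, by role and for each cytokine against control, with filled points where the limma adjusted p was under 0.05 and names at the largest that passed. Mefv and Il1b lie left of 0 with IL-4 and far right with IL-6, and all 8 inhibitors lie left of 0 with IL-4.

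Markers of other cells moved with these comparisons. Of the 10 granulocyte markers, 9 were lower with IL-4 than in control, 0 passed in IL-6 against control in limma (1 at an unadjusted p under 0.05 and 0 in voom), and 9 were higher with IL-6 than with IL-4. Of the 6 Mϕ markers, 4 were lower with IL-4 and 1 (Cd68) lower with IL-6. The mast cell markers were low, at 2.95 to 5.72 FPKM in sum in control, 12.9 to 19.6 under IL-4 and 1.56 to 3.46 under IL-6, with Mcpt4 at 3 fragments or fewer in every library. The summed dendritic cell markers reached at most 5.03 FPKM and the lymphocyte markers at most 15.8. The falls of Nlrp3, Nlrc4, Il1b and Cd14 with IL-4 ran beside lower Mϕ and granulocyte markers, and their part in these falls was not tested. Casp1 rose with IL-4, where the Mϕ and granulocyte sums were lower and the mast cell sum higher. The part of these cells in its rise was not tested. The rises of Casp4 and Gsdmd with IL-6 stood beside a granulocyte sum of 7966.6 to 11126.5 FPKM, against 4923.4 to 8791.6 in control, and the part of these cells in both rises was not tested.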

How the data were processed

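BM-derived Mϕs of 3 mice were profiled by polyA-selected, stranded RNA-seq in 3 conditions. The authors aligned reads to GRCm38 with STAR 2.4.2a and computed FPKM with Cufflinks 2.2.1. Their methods name an earlier GENCODE release than the M21 used here. The values used are the FPKM deposited by the authors, 1 column per library, for 53379 gene IDs. Of these, 50604 (94.8%) matched a GENCODE M21 ID with its version. Further IDs, among them those of Nlrc4 and Gsdmd, were given symbols without regard to version. The steps of the FPKM gave whole fragments for 100.0% of 92717 values checked (within 0.05), with 29988160 to 39909571 fragments per library. That check used M21 exon lengths, and which release lies behind the deposited values was not tested.

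FPKM were tested as log2(FPKM + 0.1) with limma 3.58.1 (R 4.3.3), all 9 libraries in 1 fit, over 12824 genes with a mean of at least 0.5 FPKM, with Benjamini-Hochberg adjustment. The exact two-sided permutation test of 3 against 3 cannot go below 0.1. Tables used Python 3.11.15, pandas 2.3.3 and matplotlib 3.10.9. The procedure was tested on simulated data, where estimates were close to the simulated differences but many changed genes were not called. After this was seen, the criterion for the share called was replaced by criteria on the estimates and on false calls. A gene that did not pass may therefore still differ. The members and gene lists were chosen with earlier results of these data known. All 10 members are named, and from each pathway list and comparison up to 3 genes that passed, those with the largest differences.

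Libraries of the same number were taken to come from the same mouse, a reading of the column names that the paper does not state. Deviations of IL-4 and control libraries of the same number correlated at 0.521, −0.415 and 0.0777. Those of IL-6 and control correlated at 0.408, 0.201 and 0.166, and those of IL-6 and IL-4 at 0.281, −0.0612 and 0.153. Alternatives covered pseudocount, filter, scaling, mouse as a block, voom, groups fitted and each library left out. The sets of libraries were to be divided by 15 intestinal genes, which gave no division, and Lyz1 was left out after seeing this.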

Additional observations from a re-analysis of the deposited data

How the results depend on the processing

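The number of inflammasome genes that passed with IL-4 (3) was 6 after quantile normalization, 5 with the exon length trend removed, 1 with only the groups compared, 1 on adjustment for the set of libraries, and 1 to 6 with a library left out. With IL-6 (2) it was 1 without a filter, 1 after median-ratio rescaling, 1 with the mouse as a replicate block, 1 with a log2 difference of at least 1 required, 0 on adjustment for the set, and 1 to 4 with a library left out. In IL-6 against IL-4 (5) it was 3 with only the groups compared, 3 with the log2 limit, and 3 to 6 with a library left out. Of the other pathway genes, 13 passed with IL-4 (21) under the log2 limit and 13 to 33 with a library left out. With IL-6 (9), 20 passed with only the groups compared, 14 with the length trend removed and 6 to 22 with a library left out, and in IL-6 against IL-4 (26) 17 passed under the log2 limit. None of the single-gene differences that changed sign had passed. Adjusted for the set, these were the IL-6 differences of Aim2 (0.09), Naip5 (0.03), Pycard (−0.35), Irf8 (0.13) and Rela (−0.08) and the IL-4 differences of Aim2 (0.17), Naip2 (0.10) and Gsdmd (−0.00). Median-ratio rescaling gave 0.18 for Aim2 and 0.17 for Naip2 with IL-4, and −0.02 for Naip5 and −0.03 for Sting1 in IL-6 against IL-4. Quantile normalization gave 0.12 for Aim2, 0.05 for Naip2 and −0.07 for Gsdmd with IL-4 and −0.03 for Naip5 in IL-6 against IL-4, and removal of the length trend −0.10 for Gsdmd with IL-4. With 1 library left out in turn, signs changed within these ranges: with IL-4, Aim2 −0.14 to 0.20, Naip2 −0.19 to 0.20, Gsdmd −0.06 to 0.12 and Casp12 −0.04 to 0.67, with IL-6, Nlrp1b −0.00 to 0.50 and Gbp2 −0.03 to 0.35, and in IL-6 against IL-4, Naip5 −0.03 to 0.32. The cause was not tested. Of the single-gene values, 1582 kept direction and side of the threshold, 40 gained a call, 138 lost one and 28 changed sign. With the block 3, 1 and 6 inflammasome genes passed, and among all listed genes it ended the calls of Gsdmd with IL-6, Il18bp with IL-4, and Il1a and Irf1 in IL-6 against IL-4, and added Serpinb1a with IL-6, and Nlrp1b and Gbp3 in IL-6 against IL-4. Over all genes, 3186 passed with IL-4 (1367 adjusted for the set, 1796 with only the groups compared, 1839 at a mean of at least 5 FPKM, 2026 to 4848 with a library left out, and 26.5% after quantile normalization, 33% with the length trend removed, 24.9% after median-ratio rescaling and 23.6% with the block). With IL-6 1077 passed (187, 2822, 628 and 462 to 3168, respectively). The shares with IL-6 were 3.15% without a filter, 9% after median-ratio rescaling, 7.08% with the block and 11.6% with the length trend removed. In IL-6 against IL-4 4375 passed (2479 at a mean of at least 5 FPKM, 2911 to 5544 with a library left out). There, 23.5% passed with only the groups compared and 34.8% with the block. With 3 mice a condition, small differences could be missed, although some passed in the main test, such as that of Myd88 with IL-4 (−0.38).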
